A study of Mus musculus with 6 samples.

Results

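Exons that are almost always skipped in the mouse heart were compared between hearts lacking Srsf3 in cardiomyocytes and hearts with Srsf3. An exon was taken as rarely included when it was 28 to 300 nt long and its inclusion level, averaged over the 2 groups, was under 10%. The inclusion level gives how many percent of the transcripts spanning that position contain the exon. Of 107748 exon events in the deposited splicing table (265079 events in all), 6170 exons in 4027 genes met this rule. They were chosen on the same inclusion levels that are described here, so those levels and their differences are a description and carry no test.

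The cKO group consisted of 3 hearts of Srsf3Fl/Fl-βMHC-Cre mice. In these animals both Srsf3 alleles are floxed, and a Cre transgene driven by the Myh7 promoter acts in cardiomyocytes from fetal life. The control group consisted of 3 hearts of Srsf3Fl/Fl mice, which carry the same floxed alleles without Cre. Age was not given in the labels, no treatment was given, and whole hearts were used, so RNA of non-myocyte cells that keep Srsf3 is part of every value. Polyadenylated RNA was sequenced from stranded libraries, and the authors combined the 3 hearts of a group into 1 inclusion level per exon. No value per heart and no read total was used, so depth per heart is unknown and no standard deviation can be given.

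SRSF3 belongs to the SR proteins, which bind short RNA sequences in exons and help the spliceosome recognise the splice sites beside them. An exon that is normally skipped often has weak splice sites or is held back by repressor proteins. Its inclusion can add a peptide when its length is a multiple of 3. It can also shift the reading frame or bring in a stop codon, which marks the transcript for nonsense-mediated decay. Exons of that last kind, called poison exons, are common in the genes of splicing factors themselves.

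Inclusion was low in both groups, as the rule requires. The median was 1.87% in cKO hearts and 2.05% in control hearts, with quartiles of 0.901% and 3.70% in cKO and of 0.970% and 3.90% in control. The absolute difference between the groups was under 1 point for 3768 exons (61.1%), where a point is 1 percentage point of inclusion. In 5165 exons (83.7%) the mean over both groups was under 5%, and in 1538 (24.9%) it was under 1%. In whole hearts, a changed mix of cell types and changed splicing within cells cannot be told apart in any of these values. Just inside the limit of 10%, the exons of Ttc14, Hsf1 and Pphln1 were at 8.47%, 11.99% and 11.4% in cKO and at 11.5%, 7.95% and 8.59% in control. Just outside it, those of Slc12a7, Ctns and Slc38a9 were at 10.7%, 10.6% and 10.2% in cKO and at 9.31%, 9.47% and 9.88% in control. By length, 12 exons were of 28 nt and 2 of 300 nt, while 28 exons of 27 nt fell just outside.

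**Figure D1:**
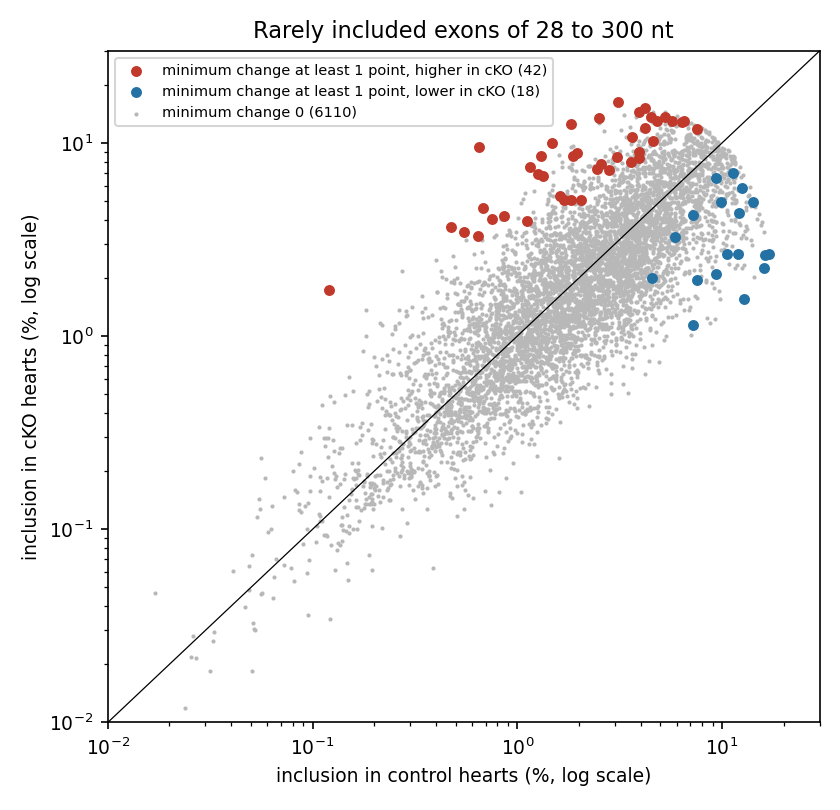
Inclusion of each rarely included exon in cKO hearts (vertical axis, percent, log scale) against control hearts (horizontal axis, percent, log scale), 1 point per exon; the line marks equal inclusion. Red and blue points are the 42 exons higher and the 18 exons lower in cKO whose minimum change was at least 1 point, and grey points are the remaining exons, most of which lie close to the line.

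The authors' minimum change is the smallest absolute difference between the groups that is exceeded with a probability of 0.95, given in whole points. Of the rarely included exons, 0 reached a minimum change of 10 points, the limit of the authors' own list of 610 events, against 0.294% of all exon events. At 5 points or more, 3 exons were called, against 0.805% of all exon events, and all 3 were higher in cKO, as were 0.289% of all exon events. At 1 point or more, 60 exons in 60 genes were called (0.972%), against 2.80% of all exon events. The share of called exons among the rarely included ones was thus below the background at each of these limits. The rule itself caps the possible difference, because mean inclusion must be under 10%. This comparison therefore cannot show whether rarely included exons respond less than others. Among exons of the same length, those of intermediate inclusion had 25.5% past 1 point and 5.33% past 10 points. Those of the highest inclusion, whose differences are also capped, had 1.66% and 0.0271%.

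Of the 60 exons past 1 point, 42 had higher inclusion in cKO and 18 had lower inclusion. Higher inclusion in cKO at this limit was found for 1.22% of all exon events, and lower inclusion for 1.58%. Among exons of the same length with 10 to 90% inclusion, 562 were higher and 549 lower in cKO, and among those at 90% or more 640 were higher and 889 lower. Rarely included microexons of 27 nt or less had 9 higher and 3 lower, and rarely included exons over 300 nt had 0 past this limit. Past 2 points, 24 rarely included exons were higher and 6 lower in cKO. These counts hold only for exons past a minimum change. Of the 23 rarely included exons that differed by at least 10 points, 9 were higher and 14 lower in cKO, and 14 of the 23 had a minimum change of 0. The difference was -14.3 points in Cdc14b with a minimum change of 1, and 13.3 points in Hipk3 with a minimum change of 8.

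**Figure D2:**
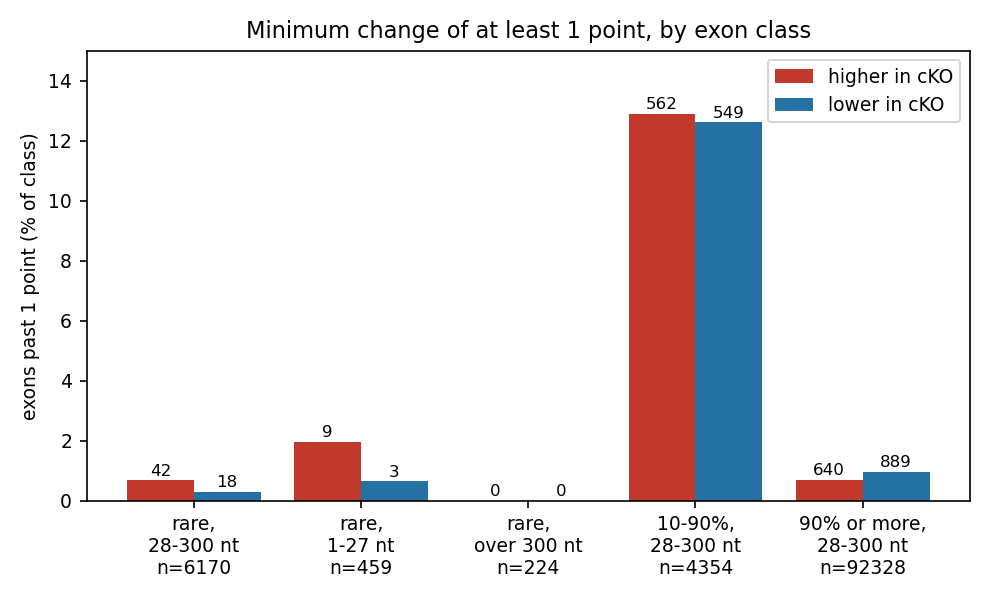
Share of exons past 1 point of minimum change in 5 exon classes (vertical axis, percent of the class; red bars higher in cKO, blue bars lower in cKO; numbers over the bars are exons). In rarely included exons of 28 to 300 nt 42 were higher and 18 lower in cKO, whereas exons of 10 to 90% inclusion had 562 and 549.

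Over all 6170 exons the balance lay the other way, since 2654 (43.0%) had higher and 3515 had lower inclusion in cKO. Read depth, as inferred from inclusion levels, moved with this balance. An exon that no read includes is still given an inclusion level above 0, and the level is lower where more reads stand behind it. Depth was ranked in each gene from exons of at least 97% inclusion in both groups, as the median log2 ratio of their distance from full inclusion in control over cKO. Over 7569 genes the median of this depth ratio was 0.39. More reads in cKO would give such a value, but so would a general difference in near-full inclusion. No read total was used to tell them apart. The 5223 rarely included exons in these genes were ranked by the depth ratio and divided into groups of 1741. In the group of highest depth ratio 36.9% were higher in cKO, in the middle one 43.7% and in the lowest one 47.2%. The part of depth in the overall balance was not tested. Of the exons past 1 point, 46 had a depth ratio, and they divided 13 to 4, 7 to 7 and 12 to 3 (higher to lower in cKO) from the group of highest to that of lowest ratio.

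The 42 exons that were higher in cKO had a median inclusion of 8.50% in cKO hearts and 2.25% in control hearts. Their cKO level exceeded the control level by a median of 3.41-fold and by 1.56-fold to 14.7-fold, and in 40 of them by at least 2-fold. The 18 exons that were lower had a median of 2.66% in cKO hearts and 11.0% in control hearts. Here the control level exceeded the cKO level by a median of 3.39-fold and by 1.41-fold to 8.21-fold. Such ratios between levels near 0 depend on depth, so levels are given beside them.

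The sequences of 16 exons past 1 point are shown, all those that an annotated transcript codes through from end to end, so that each is a stretch of possible protein coding sequence. They were read from GENCODE M21 transcripts (GRCm38), after the exons had been matched to annotated exons of the same gene by length and spacing. Capitals mark 8 pentamers of the kind SRSF3 is known to prefer, namely ACAAC or ACATC or ACTAC or ACTTC or TCAAC or TCATC or TCTAC or TCTTC. They were chosen after inclusion values had been seen, and were searched on the transcript strand only, with overlaps counted. The first 9 exons were higher in cKO and the last 7 lower. They lie at chr2:104434127-104434189 (Hipk3, minus strand), chr8:107072722-107072798 (Terf2, minus), chr7:101711411-101711500 (Clpb, plus), chr8:80776161-80776250 (Gab1, minus), chr3:20123122-20123172 (Gyg, minus), chr9:59912537-59912590 (Myo9a, plus), chr9:58902083-58902115 (Neo1, minus), chr16:32841537-32841581 (1700021K19Rik, minus) and chr10:62291975-62292043 (Hk1, minus). The other positions are chr8:68825052-68825129 (Ints10, plus), chr13:34893317-34893422 (Prpf4b, plus), chr4:44030215-44030268 (Clta, plus), chr6:71853173-71853268 (Immt, plus), chr12:25046203-25046235 (Kidins220, plus), chr13:64205498-64205583 (Cdc14b, minus) and chr17:49474109-49474252 (Daam2, minus).
Hipk3: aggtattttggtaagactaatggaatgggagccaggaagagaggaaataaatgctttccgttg
Terf2: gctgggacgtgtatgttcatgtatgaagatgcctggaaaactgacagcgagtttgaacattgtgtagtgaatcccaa
Clpb: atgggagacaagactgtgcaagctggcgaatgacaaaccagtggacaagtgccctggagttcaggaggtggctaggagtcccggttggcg
Gab1: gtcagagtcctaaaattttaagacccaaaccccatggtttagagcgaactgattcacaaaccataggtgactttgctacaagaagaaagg
Gyg: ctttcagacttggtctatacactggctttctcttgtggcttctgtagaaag
Myo9a: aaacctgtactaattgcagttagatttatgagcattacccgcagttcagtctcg
Neo1: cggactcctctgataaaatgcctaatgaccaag
1700021K19Rik: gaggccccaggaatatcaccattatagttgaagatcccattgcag
Hk1: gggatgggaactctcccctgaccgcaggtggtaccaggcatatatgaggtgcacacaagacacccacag
Ints10: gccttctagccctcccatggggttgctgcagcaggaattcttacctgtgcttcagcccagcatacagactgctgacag
Prpf4b: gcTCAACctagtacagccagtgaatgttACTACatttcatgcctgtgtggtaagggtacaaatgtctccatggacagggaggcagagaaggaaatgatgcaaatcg
Clta: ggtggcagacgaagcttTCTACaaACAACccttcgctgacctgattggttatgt
Immt: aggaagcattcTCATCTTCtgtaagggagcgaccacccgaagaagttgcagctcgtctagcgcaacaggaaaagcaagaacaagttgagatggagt
Kidins220: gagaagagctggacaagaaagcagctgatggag
Cdc14b: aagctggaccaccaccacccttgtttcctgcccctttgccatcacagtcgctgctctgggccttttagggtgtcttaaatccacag
Daam2: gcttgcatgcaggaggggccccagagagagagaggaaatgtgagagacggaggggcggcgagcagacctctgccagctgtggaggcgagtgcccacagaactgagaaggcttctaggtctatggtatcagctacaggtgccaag

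Pentamers were found in 3 of these 16 exons, those of Prpf4b, Clta and Immt, with 2 matches each. All 3 are among the 7 that were lower in cKO. Over all called exons that could be matched, the 18 that were higher in cKO held 5 matches in 1517 nt (0.330 per 100 nt), and the 13 that were lower held 12 in 1167 nt (1.03 per 100 nt). All 2179 matched rarely included exons held 0.806 per 100 nt, exons of 10 to 90% inclusion 0.877 and all matched exons of 28 to 300 nt 0.964. At least 1 match was present in 52.7% of the rarely included exons and in 62.7% of all matched exons of that length range. The median GC content was 43.6% in the exons higher in cKO, 51.5% in those lower and 49.4% in all matched rarely included exons. A match is only these letters, not a binding site, and the counts in called exons are small.

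The 3 exons past 5 points were all higher in cKO. A 63-nt exon of Hipk3, a protein kinase that phosphorylates homeodomain transcription factors, was included at 16.4% in cKO hearts and 3.10% in control hearts. Its minimum change of 8 points was the largest among the rarely included exons. A second exon event of Hipk3, 291 nt long, stood at 92.1% in cKO and 99.8% in control.

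The next exon, of 84 nt, lies in 2500003M10Rik, now named Chtop, which encodes an RNA-binding protein of the mRNA export machinery. It was included at 14.5% in cKO hearts and 3.91% in control hearts (mm9 chr3:90309317-90309400, minimum change 6 points). The third, of 101 nt, lies in 4732415M23Rik, now Spata33, a gene best known from sperm. It was included at 12.5% in cKO hearts and 1.84% in control hearts (mm9 chr8:125741796-125741896, minimum change 5 points). None of these 3 host genes passed the authors' gene test; the authors' deposited table gives log2 fold changes of 0.04 for Hipk3, -0.17 for Chtop and -0.23 for Spata33.

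**Figure D3:**
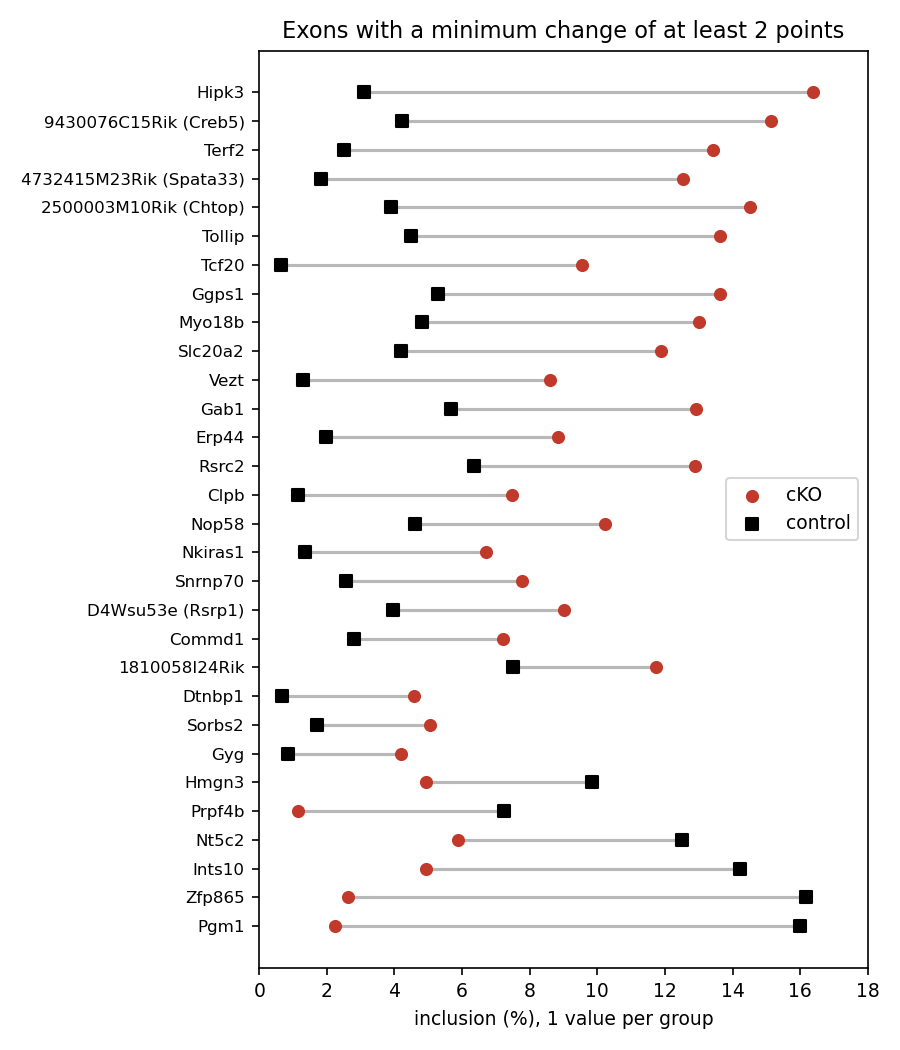
Inclusion of the 30 rarely included exons past 2 points of minimum change (horizontal axis, percent; red circles cKO, black squares control; 1 combined value per group, no error available), ordered by the difference. In 24 exons the cKO value lies to the right of the control value, and in 6, among them Pgm1, Zfp865 and Ints10, to the left.

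The other exons past 1 point that are named from here on were picked after their values were seen, and they are grouped by what their genes do. Genes of RNA processing and transcription were the first group. An 80-nt exon of Snrnp70, which encodes the 70-kDa protein of the U1 particle that recognises 5′ splice sites, was included at 7.78% in cKO hearts and 2.55% in control hearts. Annotated transcripts that hold it include one marked for nonsense-mediated decay. A 106-nt exon of Prpf4b, a kinase associated with the spliceosome, was at 1.14% in cKO and 7.22% in control, and its only annotated transcript is of the nonsense-mediated decay class.

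Exons of further RNA-binding proteins moved both ways. In Elavl1, which encodes the mRNA-stabilising protein HuR, a 58-nt exon was included at 8.41% in cKO and 3.06% in control. In Celf1, a regulator of alternative splicing in heart and skeletal muscle, a 105-nt exon was at 3.97% in cKO and 1.11% in control. The RNA helicase gene Ddx17 had a 236-nt exon at 7.99% in cKO and 3.58% in control. In Hnrnpa2b1, which encodes an abundant nuclear RNA-binding protein, a 226-nt exon was lower, at 1.99% in cKO against 4.55% in control.

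Both Ddx17 and Hnrnpa2b1 held larger changes in exons outside the rarely included class. A 243-nt exon of Ddx17 was included at 74.7% in cKO and 97.3% in control, with a minimum of 19 points. A 73-nt exon of Hnrnpa2b1 was at 29.9% in cKO and 51.4% in control (17 points).

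Transcription and export factors also gave exons in each direction. A 78-nt exon of Ints10, a subunit of the Integrator complex that cleaves nascent RNA, was at 4.93% in cKO and 14.2% in control. A 48-nt exon of Cdk13, a kinase of the RNA polymerase II tail, was at 6.91% in cKO and 1.26% in control. Nop58, a core protein of the particles that guide RNA methylation, had a 117-nt exon at 10.2% in cKO and 4.59% in control. In Thoc7, part of the THO complex of mRNA export, a 119-nt exon was at 8.35% in cKO and 3.91% in control.

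Chromatin and DNA-binding proteins formed the second group. A 77-nt exon of Terf2, whose product protects chromosome ends within shelterin, was included at 13.4% in cKO hearts and 2.50% in control hearts. In Tcf20, a transcriptional coregulator, a 144-nt exon was at 9.56% in cKO and 0.650% in control, the largest ratio among the exons past 1 point, and a 123-nt exon of the same gene was at 51.8% in cKO and 32.5% in control. Creb5, listed as 9430076C15Rik, encodes a CREB-family transcription factor and had a 29-nt exon at 15.1% in cKO and 4.21% in control.

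Other chromatin genes had less inclusion in cKO. A 137-nt exon of the histone deacetylase Hdac5 was at 2.09% in cKO and 9.37% in control. A 43-nt exon of Hmgn3, which binds nucleosomes, was at 4.94% in cKO and 9.85% in control. A 134-nt exon of Ahctf1, a nuclear pore protein that binds chromatin, was at 4.31% in cKO and 12.1% in control and is annotated only in a nonsense-mediated decay transcript.

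In 2 further genes a rarely included exon stood beside larger differences of other exons. In Zfp865, a zinc finger gene, a 32-nt exon was at 2.64% in cKO hearts and 16.2% in control hearts, and a 1147-nt exon of the same gene was at 20.9956% in cKO and 87.0% in control (a minimum of 49 points). In Cdc14b, a phosphatase of the cell cycle, an 86-nt exon was at 2.65% in cKO and 17.0% in control. Its difference of -14.3 points was the largest in absolute size among all 6170 exons, yet its minimum change was 1 point. A 117-nt exon of Cdc14b was at 69.7% in cKO and 24.2% in control, and a 147-nt exon at 50.4% in cKO and 90.3% in control.

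The sarcomere, the cytoskeleton and adhesion formed the third group. In Myo18b, an unconventional myosin needed for sarcomere assembly, an 83-nt exon was included at 13.0% in cKO hearts and 4.80% in control hearts. A 56-nt exon of Sorbs2, an adaptor at the Z-disc, was at 5.05% in cKO and 1.69% in control. The 3 further Sorbs2 exons of 159, 84 and 57 nt, in the class of 10 to 90% inclusion, were at 79.6%, 78.5% and 71.3% in cKO and at 87.8%, 86.0% and 81.9% in control.

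Further exons of this group differed in both directions. Those of Tns1, a focal adhesion protein, and Vezt, a component of cell junctions, were at 3.46% and 8.60% in cKO and at 0.548% and 1.30% in control. The Vezt exon is annotated only in a nonsense-mediated decay transcript. The 54-nt exon of Myo9a, an unconventional myosin, was at 9.95% in cKO and 1.48% in control. In contrast, a 144-nt exon of the formin Daam2 was at 1.55% in cKO and 12.8% in control. A 106-nt exon of the protein kinase gene Rock2 was at 2.65% in cKO and 12.0003% in control.

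Mitochondrial and metabolic genes formed the fourth group. The 90-nt exon of Clpb, a chaperone of the mitochondrial intermembrane space that resolves aggregates, was included at 7.47% in cKO hearts and 1.15% in control hearts. The 96-nt exon of Immt, whose product organises mitochondrial cristae, was at 6.597% in cKO and 9.29% in control. A 155-nt exon of Cmc1, an assembly factor of cytochrome c oxidase, was at 4.01% in cKO and 0.755% in control.

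Several sugar metabolism genes were among them. The 51-nt exon of Gyg, which encodes the glycogenin that primes glycogen, was at 4.18% in cKO and 0.858% in control. A 69-nt exon of the hexokinase Hk1 was at 5.03% in cKO and 2.05% in control. A 299-nt exon of a phosphoglucomutase gene listed as Pgm1 (mm9 chr5:64504774-64505072) was lower, at 2.25% in cKO and 16.002% in control. No annotated exon was matched to it, but exons were compared only with the gene found by symbol, and only on that gene's chromosome. Which gene the listed symbol names today was not checked, so this exon may never have been compared with its own gene. The fold change of its host gene was looked up by symbol only and may belong to another gene. A 71-nt exon of Ggps1, which makes the geranylgeranyl lipid for protein prenylation, was higher, at 13.6% in cKO and 5.27% in control.

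Signalling and membrane traffic formed the last group. A 90-nt exon of Gab1, a docking protein of receptor tyrosine kinases, was included at 12.9% in cKO hearts and 5.68% in control hearts, while an 81-nt exon of the same gene was at 30.8% in cKO and 46.3% in control. A 117-nt exon of Cab39, the scaffold of the LKB1 kinase complex, was at 13.0% in cKO and 6.54% in control. An 89-nt exon of Tollip, an adaptor of endosomal sorting, was at 13.6% in cKO and 4.48% in control. The 45-nt exon of 1700021K19Rik, now Rubcn, a negative regulator of autophagy, was at 10.7% in cKO and 3.63% in control.

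In a few genes of this group the exon was skipped more in cKO. The 54-nt exon of Clta, the clathrin light chain a, was at 3.25% in cKO and 5.87% in control. The 33-nt exon of Kidins220, a membrane scaffold of neurotrophin signalling, was at 2.66% in cKO and 10.6% in control, beside a 57-nt exon at 32.8% in cKO and 55.2% in control. The 59-nt exon of Nt5c2, a cytosolic nucleotidase, was at 5.87% in cKO and 12.5% in control and is annotated only in nonsense-mediated decay transcripts.

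Some of the called exons lay in genes with other splicing differences. Of the 60 genes, 32 (53.3%) held at least 1 other event past 1 point outside the rarely included class, and 28 held none. Of the 3967 genes whose rarely included exons were not called, 1471 (37.1%) held such an event. At 10 points these shares were 20.0% (12 genes) and 4.66% (185 genes). Events of 1 gene share reads and cannot be taken as independent. The genes compared here were not matched for expression or for their number of events, and the part of either in these shares was not tested.

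In 12 gene lists of splicing, muscle and metabolism, 6 of 321 rarely included exons were past 1 point (1.87%), against 0.972% of all rarely included exons. At such shares a list of 10 to 44 exons can hold none past 1 point without differing from the class, so the counts of single lists are given only as a description. The SR proteins had 11 such exons in 6 genes and 0 past 1 point. The largest absolute difference among them was that of a 104-nt exon of Srsf2, at 7.34% in cKO hearts and 3.30% in control hearts with a minimum change of 0. A 109-nt exon of Srsf11, annotated for nonsense-mediated decay, was at 6.61% in cKO and 9.40% in control, also with 0. No rarely included exon of Srsf3 itself is among the 6170. Srsf3 was listed only with an alternative splice site and no exon event, so the inclusion of its exons was not available. The SR kinase and Tra2 list had 10 exons and 0 past 1 point, with a 146-nt exon of Srpk2 at 2.28% in cKO and 8.96% in control and an 81-nt exon of Tra2a at 3.68% in cKO and 8.98% in control.

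Among regulators outside the SR family, 2 of 41 exons in hnRNP and tissue splicing genes were past 1 point, namely those of Celf1 (higher) and Hnrnpa2b1 (lower). In the core spliceosome list 1 of 29 was, in Snrnp70, and a 53-nt exon of Prpf38b was at 12.4% in cKO and 5.57% in control with a minimum change of 0. The nonsense-mediated decay factors had 0 of 12, with exons of 179 and 90 nt in Upf2 at 6.66% and 3.47% in cKO and at 2.48% and 6.35% in control.

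Muscle and channel genes gave a similar picture. Sarcomere and Z-disc genes had 1 of 38 exons past 1 point, in Sorbs2. A 102-nt exon of Ttn, the titin spring of the sarcomere, was at 10.8% in cKO and 3.68% in control with a minimum change of 0. Ion channels and calcium handling had 0 of 36. There a 77-nt exon of the calcium-dependent kinase Camk2b was at 8.49% in cKO and 3.56% in control, and a 36-nt exon of the calcium release channel Itpr1 was at 7.88% in cKO and 3.23% in control.

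For mitochondria and metabolism, 1 of 35 exons in genes of dynamics and quality control was past 1 point, in Immt. The calcium uniporter gene Mcu, listed as Ccdc109a, had a 113-nt exon at 2.44% in cKO and 9.24% in control with a minimum change of 0. Oxidative phosphorylation and fuel metabolism had 0 of 23, with exons of Acsl1 and Pfkl at 3.54% and 1.91% in cKO and at 6.45% and 0.597% in control. The median inclusion in this list was 0.357% in cKO and 0.248% in control, under that of all rarely included exons.

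The remaining lists held 1 called exon. The autophagy, mTOR and AMPK genes had 0 of 28, with exons of Prkag1 and Camkk2 at 5.69% and 2.53% in cKO and at 12.2% and 6.64% in control. Cell cycle and p53 genes had 0 of 14, with exons of Rb1 and Ccnd3 at 7.94% and 4.06% in cKO and at 3.93% and 7.52% in control. Chromatin and transcription genes had 1 of 44, in Hdac5, and a 71-nt exon of Setd5 was at 3.20% in cKO and 13.1% in control with a minimum change of 0.

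Most genes with rarely included exons held a single one (2656 of 4027 genes), and 68 held 5 or more. Cd44, a cell surface receptor for hyaluronan whose variable exons are well known, held the most. Of its 15 exon events 10 were rarely included, at 0.787% to 1.48% in cKO hearts and 1.67% to 2.07% in control hearts, and 0 of the 10 was past 1 point. All 10 were lower in cKO. The depth ratio of Cd44 was 0.43 on the log2 scale, near the median of 0.39 over all genes with such a ratio, and the part of depth was not tested. Atp11b, a lipid flippase, held 8, at a median of 1.20% in cKO and 1.40% in control. Fam178a, Jak3, Phkb and Raly held 7 each. Depth ratios of Atp11b, Fam178a, Jak3, Phkb and Raly were 0.38, 0.56, 0.47, 0.51 and 0.11, with 2, 1, 0, 5 and 4 of their exons higher in cKO. In Raly, an RNA-binding protein, the 7 exons spanned 0.0293% to 7.20% in cKO and 0.0331% to 6.82% in control. None of the exons in these 6 genes was past 1 point.

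Annotation and reading frame describe what these exons would add to a transcript, and neither was used to choose them. In genes where the exon structure could be aligned, 2179 of 5416 rarely included exons (40.2%) coincided in both ends with an exon of GENCODE M21. For exons of 10 to 90% inclusion this share was 89.6%, and for exons at 90% or more 99.4%. The match took the shift that fits most exon events of a gene, and 92328 of the 107748 exon events were of this last class. Its share is therefore partly set by the method, and these shares do not compare annotation alone. Of the 60 called exons, 18 of 33 in such genes that were higher in cKO and 13 of 15 that were lower coincided with an annotated exon. A nonsense-mediated decay transcript and no coding one held 2 of these 18 and 4 of these 13, against 27.9% of all matched rarely included exons.

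Matched rarely included exons were often outside protein-coding transcripts. At least 1 protein-coding transcript held 1038 (47.6%) of them. A further 607 (27.9%) were held by a nonsense-mediated decay transcript and no coding one, against 5.26% of exons at 10 to 90% inclusion and 0.210% of exons at 90% or more. The remaining 534 (24.5%) were in neither. A single annotated transcript was the source of 1743 (80.0%) of the matched rarely included exons, against 17.4% for exons at 90% or more.

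**Figure D4:**
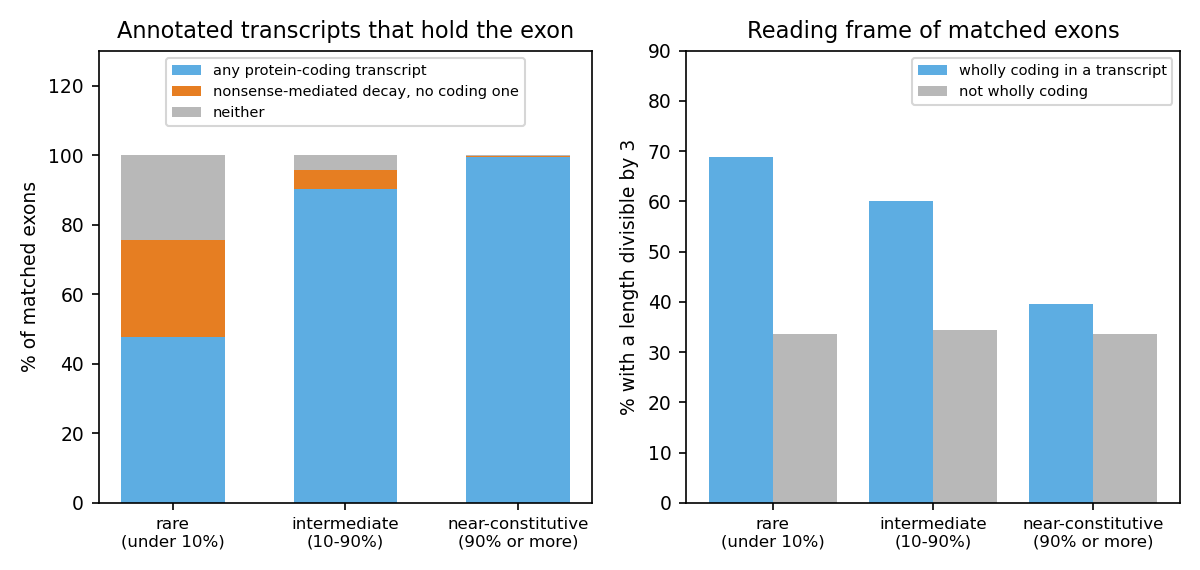
Left, share of annotated exons held by at least 1 protein-coding transcript (blue), by a nonsense-mediated decay transcript and no coding one (orange) or by neither (grey), in percent of matched exons of each inclusion class. Right, percent of exons with a length divisible by 3, for exons wholly coding in a transcript (blue) and for the others (grey); among rarely included exons these are 68.9% and 33.5%.

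Over all rarely included exons, 2383 (38.6%) had a length divisible by 3, close to the 39.3% of exons at 90% or more and below the 50.8% of exons at 10 to 90%. The share was 68.9% among the 623 that are wholly coding in a transcript, against 33.5% among the other matched exons and 36.6% among the 3237 unmatched ones. Their median length was 104 nt, against 102 nt at 10 to 90% inclusion and 120 nt at 90% or more. Of the called exons, 22 of the 42 that were higher in cKO and 6 of the 18 that were lower had a length divisible by 3.

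Expression of the host genes, which the rule did not use, was taken from the authors' gene comparison of the same hearts. The deposited table does not name the group that its fold change is relative to. The direction was settled from the depth ratio: in 634 of 670 differing genes with such a ratio (94.6%), it lay on the side of its median that the fold change's sign gives. Positive values are therefore given as higher in cKO. Of 3958 tested host genes, 348 passed the authors' Wald test (8.79%; threshold 0.05 after adjustment), against 7.09% of all genes tested and 8.51% of genes with any exon event. Of these, 178 were higher in cKO and 170 lower, while 3.78% of all genes tested were higher and 3.31% lower. Over all 3958 tested host genes the median log2 fold change was 0.00, as was that of all 15929 genes tested. Host genes had a median of 1394 normalized counts, against 709 for all genes tested.

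Of the called exons, 59 lay in host genes that were tested, and 6 of those genes passed. Nt5c2, Cdc14b and Gyg were higher in cKO, with log2 fold changes of 0.50 (SE 0.13), 0.37 (SE 0.13) and 0.36 (SE 0.10) in the authors' deposited table. Gmpr, a GMP reductase, Kidins220 and Commd1, a protein of copper and endosomal transport, were lower, at -0.42 (SE 0.10), -0.32 (SE 0.09) and -0.30 (SE 0.10) in the authors' deposited table. Over these 6 genes the adjusted p in the authors' deposited DESeq2 table lay between 0.00177 for Gmpr and 0.0490 for Cdc14b. The median log2 fold change was 0.03 for hosts of exons higher in cKO and -0.01 for hosts of exons lower in cKO.

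**Figure D5:**
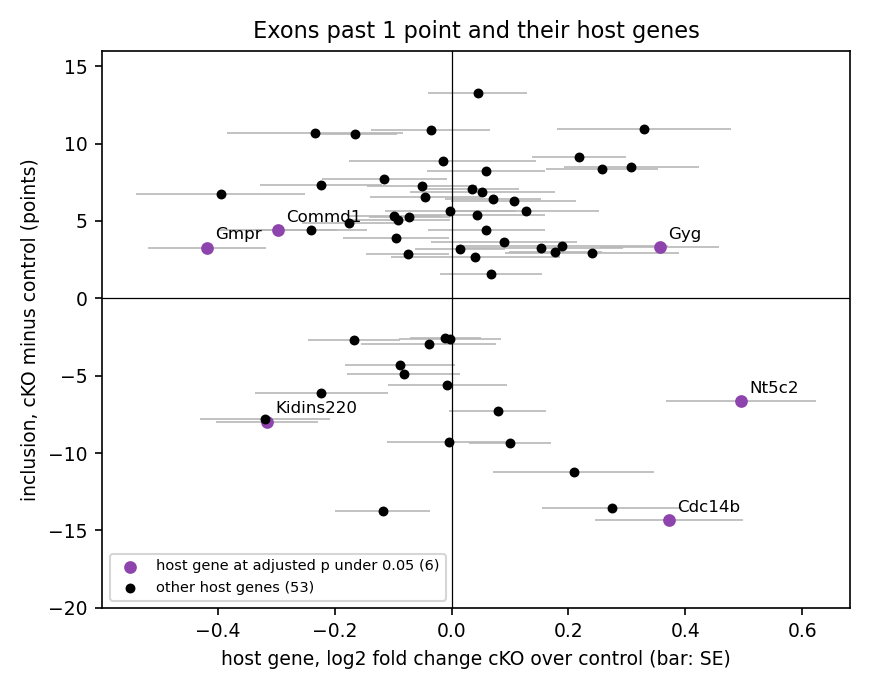
Difference in inclusion, cKO minus control (vertical axis, percentage points), against the host gene's log2 fold change, cKO over control (horizontal axis; bars, standard error in the authors' table), for 59 exons past 1 point. The 6 hosts that passed the authors' gene test (purple) lie on both sides of 0 on both axes, with 3 higher and 3 lower in cKO. Hosts were looked up by symbol, and for the exon listed under Pgm1 the fold change may belong to another gene.

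Markers of heart muscle were abundant, and markers of some other cell types differed between the groups. All 7 cardiomyocyte markers were measured, at 25584 normalized counts or more on average over all hearts, and 4 of them were lower in cKO. Of 6 myeloid markers 4 were higher in cKO, with a median log2 fold change of 0.66 over the list and means of 160 to 1057 normalized counts. Of 6 fibroblast and 4 mural markers 0 passed, and of 5 endothelial markers 1 was higher. The median of the 4 epicardial markers was 0.40, with 0 that passed, and 1 of 4 erythroid and 1 of 6 skeletal muscle markers were lower. All 3 testis and cilium genes were higher, with a median of 4.31. These 3 are not markers of a heart cell type and were chosen with earlier results of these data known. Their rise is therefore no separate observation about cell content. In whole hearts, fewer cells of a type and less RNA per cell cannot be told apart in these gene values. The part of these markers' cells in the inclusion differences was not tested. Srsf3 total RNA did not pass, with a log2 fold change of 0.02 (SE 0.07) in the authors' deposited table, which sums all transcripts and does not check the deletion.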

How the data were processed

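RNA of 3 cKO and 3 control mouse hearts was measured, with groups taken from the sample descriptions. In the submitters' processing notes DESeq2 1.24.0 and kallisto 0.46.0 are listed beside Trimmomatic 0.38 and FastQC 0.10.1, with mm10, mm9 and GRCm38 as builds. The splicing tool's version is not given in the sources used here. Per the file headers, the splicing table holds inclusion as a fraction for each group, the difference as a score (control minus cKO, turned round here) and the minimum change as a score. The gene table deposited by the authors gives, per gene, a mean normalized signal over all hearts, a log2 fold change and its SE, and a raw and an adjusted p-value.

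Differences were computed as cKO minus control in percentage points. Event coordinates are on mm9. Symbols of 11623 of 11908 genes were matched to the gene table. Exons were matched to GENCODE M21 (GRCm38) by the shift under which most exon events of a gene coincide with annotated exons, with at least 3 other exons in support; no coordinate was converted. Exons of genes with an insertion or deletion between the builds may be left unmatched, and how often this occurred was not tested. The effect of a general difference in near-full inclusion on the depth ratio was not tested either. Python 3.11.15, pandas 2.3.3, numpy 2.4.6, scipy 1.17.1 and matplotlib 3.10.9 were used.

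The exons, the gene lists and the limits were chosen with earlier results of these data known. Named exons are those past 10 or 5 points, the 2 of each list with the largest minimum change (ties broken by absolute difference, a choice made after the data were seen), host genes of those past 5 points that pass the gene test, and the 3 genes with most such exons (6 with ties); the others were picked after their values were seen. The limit of 1 point and the pentamers were chosen after the data were seen.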

Additional observations from a re-analysis of the deposited data

How the results depend on the processing

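No paired analysis was possible because the deposited values are combined per group, and for the same reason no heart could be left out. With no probability attached, 23 exons differed by at least 10 points (0 by minimum change), 267 by at least 5 points (3) and 2402 by at least 1 point (60). With mean inclusion under 5% or both groups under 10%, 0 and 0 exons were past 5 points and 21 and 35 past 1 point. Under the main rule, 30 were past 2 points. The share higher in cKO over all exons, 43.0%, was 41.4% under 5% mean inclusion, 49.5% among exons of at least 5% in either group and 70.0% among those with a minimum change above 0. Among exons past 1 point, the 70.0% higher in cKO ranged from 68.2% to 81.0% under the alternatives tried. Median inclusion was 1.51% in cKO and 1.64% in control under 5% mean inclusion, and 1.78% in cKO and 1.94% in control with both groups under 10%; these medians fall by the rule's own construction, and the cause of the other shifts was not tested. Host genes at an adjusted p under 0.01 numbered 150, against 348 at 0.05. Counting overlapping events once and lengths of 51 to 250 nt moved none of these results beyond its limit. Depth per heart is unknown, and it limits every difference between levels near 0.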

Other observations

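Of the 23 rarely included exons that differed by at least 10 points, 14 had a minimum change of 0, and 9 of the 23 were higher and 14 lower in cKO. A 51-nt exon of Sema6a, a semaphorin, was included at 3.48% in cKO and 15.9% in control. A 128-nt exon of Dennd3, an activator of a Rab protein of vesicle traffic, was at 3.91% in cKO and 15.6% in control, and a 105-nt exon of the mitochondrial myosin gene Myo19 at 2.25% in cKO and 12.5% in control. An 81-nt exon of Edc3, which enhances mRNA decapping, was at 12.7% in cKO and 2.52% in control. All 4 had a minimum change of 0 and were named after their values were seen.

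A 111-nt and a 214-nt exon of Cenpp, a centromere protein, stood at 23.8% and 19.0% in cKO and at 11.1% and 5.02% in control, beside its rarely included 50-nt exon at 8.60% in cKO and 1.86% in control. In D4Wsu53e, now Rsrp1, which encodes a protein rich in arginine and serine, a 45-nt exon was at 19.9% in cKO and 6.48% in control and the rarely included 125-nt exon at 9.0015% in cKO and 3.95% in control.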
